A study of Mus musculus with 52 samples.

Results

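Whole spleens of 1-month-old female mice were compared between NZB/W-F1, the hybrid of a New Zealand Black (NZB) mother and a New Zealand White (NZW) father, and C57BL/6. The comparison holds 6 RNA-seq libraries, 3 of each strain, chosen by their titles, of 52 libraries of spleen, kidney and brain in the series. Hybrids of this age are labelled lupus asymptomatic and pre-puberty, and C57BL/6 mice are labelled healthy. All animals were perfused with buffered saline, and no treatment is named for either strain. The strains differ over the whole genome, so no single allele separates the groups, and the hybrid carries a genome from each New Zealand parent. Spleens of 3 and 6 months (3 NZB/W-F1 and 2 C57BL/6 libraries at each age) came from other animals and are used here to share the estimate of spread and to set the values at 1 month beside later ages. NZB/W-F1 females of 3 months are described as not yet autoimmune, and those of 6 months as nephritic. The study's design gives 3 mice for each strain and age, and p-values measure the spread between their libraries. In the series numbering, NZB/W-F1 samples of 1 month stand in 1 run with both strains of 6 months. C57BL/6 samples of 1 month stand in a later run with both strains of 3 months. Whether the runs were prepared apart is not given, and at 1 month such a difference cannot be told apart from strain.

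The mouse spleen combines lymphoid and blood-forming tissue. Its white pulp holds B cell follicles and T cell zones, and its red pulp filters blood and recycles old red cells through macrophages. In young mice the red pulp also makes red cells: precursors driven by the transcription factors GATA1, TAL1 and KLF1 divide several times while they build haemoglobin and the spectrin membrane skeleton. NZB/W-F1 females are a classical model of lupus, in which antibodies against nuclear material appear with age and nephritis follows.

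Library depth at 1 month was 6.57 to 11.6 M reads in NZB/W-F1 and 5.27 to 9.41 M reads in C57BL/6, and 3 reads corresponded to 0.269 to 0.531 CPM (read counts scaled to library size, as deposited). Levels below are CPM for replicates 1, 2 and 3 in that order, with NZB/W-F1 first where values stand against each other, and differences are NZB/W-F1 minus C57BL/6 on the log2(CPM + 0.5) scale with their standard error (SE) from limma's moderated test, adjusted by Benjamini-Hochberg over 15122 genes. A gene is called at an adjusted p under 0.05. Folds of low genes are understated on this scale. The libraries carried spleen markers: the T cell receptor subunit gene Cd3e stood at 44.3, 46.8 and 36.7 against 45.1, 45.3 and 50.4 CPM and the red pulp macrophage factor Spic at 62.2, 61.6 and 100.5 against 249, 163 and 82.6 CPM in NZB/W-F1 and C57BL/6. The female transcript Xist was at 856 to 1710 CPM in all 6 libraries, whereas the library labelled 6-month NZB/W-F1 replicate 3, also labelled female, had 1.44 CPM.

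Reads of pancreatic digestive enzymes were present in single libraries. Summed over 29 measured pancreas genes, they reached 50600, 976 and 30.8 CPM in the C57BL/6 libraries and 12.8, 20.1 and 16.8 CPM in the NZB/W-F1 libraries. C57BL/6 replicate 1 thus held 5.15% of its reads in these genes and replicate 2 held 0.105%. Cela1, an elastase, was at 8.77, 14.4 and 13.2 against 5518, 153 and 17.6 CPM, Cela2a at 0, 0 and 0 against 2094, 14.5 and 0.784 CPM and Cela3b at 0, 0 and 0 against 1850, 36.3 and 0 CPM. The last 2 had no read in any NZB/W-F1 library, and the C57BL/6 values spread over orders of magnitude. Of the 29 genes, 1 passed the test, against 29.4% of all genes. This was Reg2, a secreted lectin of the pancreas, at 0, 0 and 0 against 203, 14.5 and 0 CPM. Its difference was -4.53 ± 1.49, with an adjusted p of 0.0362. Its call was lost in 5 of the 6 fits that leave out 1 library of this age, C57BL/6 replicate 3 being the exception (adjusted p 0.15 and 0.069 without C57BL/6 replicate 1 or 2, and 0.092, 0.077 and 0.079 without NZB/W-F1 replicate 1, 2 or 3). Outside 1 month, NZB/W-F1 replicate 2 of 3 months held 17.3% of its reads in this list and NZB/W-F1 replicate 3 of 6 months 4830 CPM. Leaving out these 3 libraries with over 1000 CPM was added after seeing the data and is given below as the fit without the pancreas-rich libraries. In that fit 8 of the 29 genes were called lower in NZB/W-F1, where the remaining C57BL/6 libraries are replicates 2 and 3. Of other tissues around the spleen, 1 of 7 listed liver genes was measured and not called, and none of 9 adipocyte genes was called (1 at an unadjusted p under 0.05, and 0 by edgeR or DESeq2, but 1 lower without NZB/W-F1 replicate 3). Adipocyte reads were still present, summing to 42.7, 233 and 626 CPM in NZB/W-F1 and 156, 82.8 and 704 CPM in C57BL/6. Replicate 3 was the highest in each strain.

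C57BL/6 replicate 3 stood apart in genes of the spleen's surface and framework. Summed over 4 genes of mesothelium, the lining of the organ, it held 1180 CPM, against 98.9 and 24.6 CPM in the other C57BL/6 libraries and 12.2, 60.1 and 87 CPM in NZB/W-F1. Over 13 genes of stroma and muscle it held 4210 CPM, against 733 to 1380 CPM in the other 5 libraries. Of the 4 mesothelium genes, 1 was lower in NZB/W-F1 (2 by DESeq2 or without C57BL/6 replicate 2), Wt1, a transcription factor of mesothelium, at 7.33, 13.7 and 14 against 41.1, 19.3 and 86.4 CPM (difference -1.82 ± 0.44, adjusted p 0.0101; 0.038 without C57BL/6 replicate 3). Of the 13 stroma genes, 2 were lower, against 16% of all genes. Pdgfra, a growth factor receptor of fibroblasts, was at 24.1, 21.9 and 33 against 74, 56.1 and 64.4 CPM (difference -1.30 ± 0.26, adjusted p 0.00475). Acta2, the actin of smooth muscle, was at 43.6, 48.8 and 64.2 against 123, 56.5 and 462 CPM (difference -1.51 ± 0.53, adjusted p 0.0455), and that call was lost without the pancreas-rich libraries (0.1) and without each library of this age except C57BL/6 replicate 2 (0.067 to 0.15). Without C57BL/6 replicate 2, 5 of the 13 were lower, and edgeR and DESeq2 called 3.

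**Figure D1:**
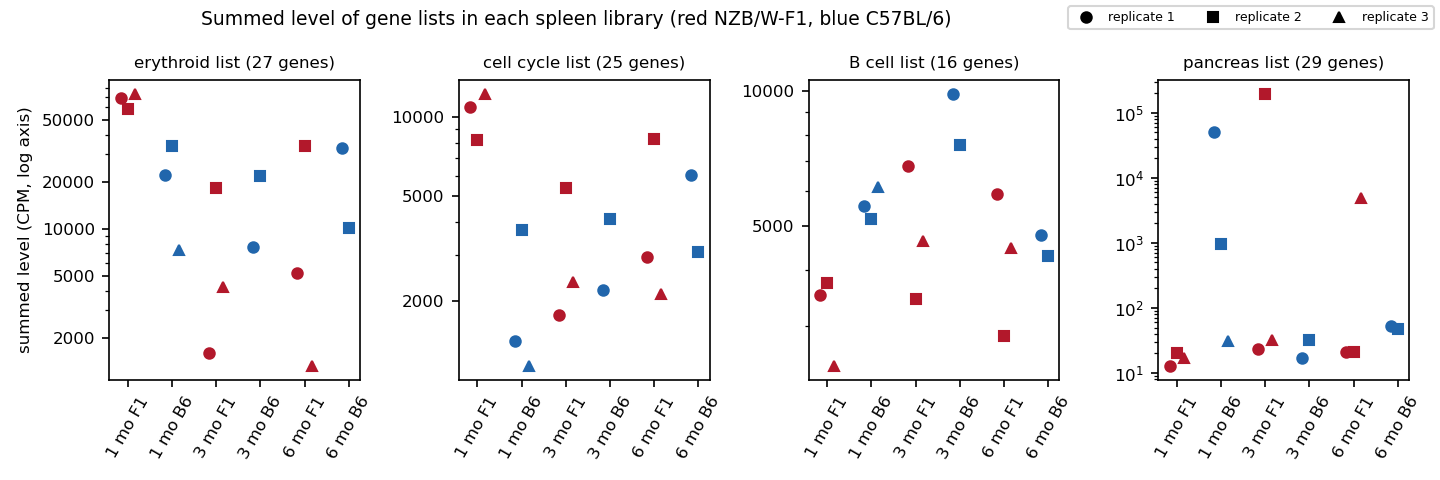
Summed level of the erythroid, cell cycle, B cell and pancreas lists in each of the 16 spleen libraries (CPM, log axis), by age and strain, each point being 1 library. At 1 month the erythroid and cell cycle sums of the 3 NZB/W-F1 libraries lie above all 3 C57BL/6 libraries, and the pancreas sum is at 50600 CPM in C57BL/6 replicate 1 and at 197000 CPM in NZB/W-F1 replicate 2 of 3 months.

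Across the transcriptome, 4449 of 15122 genes (29.4%) differed between the strains at 1 month, 2026 of them higher (13.4%) and 2423 lower (16%) in NZB/W-F1. Red cell precursor genes and cell division genes were the groups with the highest medians, immunoglobulin G constant genes were higher, and genes of B cells, dendritic cells and antigen presentation were more often lower. The median difference of all genes was -0.16, and -0.043 with median-of-ratios scaling, a shift of over 0.1 between the scalings. The share of calls that were higher was 45.5%, against 59.3% with median-of-ratios scaling and 54.8% with DESeq2. The count was 1864 without C57BL/6 replicate 1, 2555 without C57BL/6 replicate 3, 2057 and 2914 when NZB/W-F1 replicate 1 or 3 was omitted, and 2339 without the pancreas-rich libraries. Without a test, all 3 NZB/W-F1 libraries lay above all 3 C57BL/6 libraries for 20% of genes and below them for 28.5%.

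Red cell precursor genes had the highest median of all lists. Of 27 measured members, 20 were higher in NZB/W-F1, 1 was lower and 6 did not pass the test, with a median difference of 3.89. Over all genes 13.4% were higher and 16% lower. In 26 of the 27 all NZB/W-F1 libraries were above all C57BL/6 libraries, against 20% of all genes. The summed level of the 27 was 69300, 58800 and 73600 CPM in NZB/W-F1, 5.86% to 7.14% of the reads. In C57BL/6 it was 22100, 33900 and 7340 CPM. The C57BL/6 libraries differed among themselves, replicate 2 being highest for nearly every member. In bulk tissue, more cells of a type and more RNA per cell cannot be told apart.

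Among the regulators, Tal1, a basic helix-loop-helix factor needed for red cell formation, was at 689, 478 and 745 CPM in the NZB/W-F1 libraries and 41.5, 181 and 20.6 CPM in the C57BL/6 libraries. The difference was 3.52 ± 0.86, with an adjusted p of 0.0105. Epor, the receptor of the hormone erythropoietin, was at 236, 218 and 198 against 23.4, 59.7 and 12.4 CPM, and rose by 3.04 ± 0.75 (adjusted p 0.0109). Nfe2, a factor that drives globin genes, was at 291, 249 and 302 against 52.6, 88.3 and 35.2 CPM, with a difference of 2.34 ± 0.56 (adjusted p 0.00962). No NZB/W-F1 library of these 3 genes overlapped a C57BL/6 library, and none lost its call with any single library left out. Klf1, the factor that switches on adult globin and membrane genes (chr8:84901928-84905291, GRCm38), was at 499.6, 381 and 410.1 CPM in the NZB/W-F1 libraries and 5.87, 93.3 and 4.12 CPM in the C57BL/6 libraries. Its C57BL/6 replicates 1 and 3 were close to 5 CPM and replicate 2 was far above them. The difference of 4.93 ± 1.33 (adjusted p 0.0163) was no longer called with edgeR's quasi-likelihood test (adjusted p 0.059) and without C57BL/6 replicate 1 (0.07), C57BL/6 replicate 3 (0.064) or NZB/W-F1 replicate 1 (0.055).

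A membrane skeleton gene and a nuclear protein gene moved with them. Sptb, which encodes the red cell beta-spectrin (chr12:76580488-76710547), was at 1770, 1260 and 2052 CPM in the NZB/W-F1 libraries and 24.8, 272 and 19.8 CPM in the C57BL/6 libraries. The difference was 5 ± 1.20 with an adjusted p of 0.01, and the call held with every single library left out. Hemgn, a nuclear protein of blood precursors, was at 949, 609 and 1371 against 13.1, 198 and 5.49 CPM (difference 5.19 ± 1.51, adjusted p 0.0225). In Hemgn the 3 NZB/W-F1 libraries exceeded C57BL/6 replicate 2, which in turn exceeded replicates 1 and 3 by more than an order of magnitude. Its call was lost with edgeR (adjusted p 0.087) and without C57BL/6 replicate 1 or 3 or NZB/W-F1 replicate 1 or 3, where the adjusted p reached 0.088.

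Other genes of the same pattern were Fn3k and Btnl10. Fn3k, a kinase that repairs glycated proteins, was at 115, 82.9 and 174 against 2.93, 16.3 and 0.686 CPM, a difference of 4.86 ± 1.29 (adjusted p 0.0151; 0.055 without C57BL/6 replicate 1 and 0.062 without C57BL/6 replicate 3). Btnl10, a butyrophilin-like membrane protein, was at 337, 238 and 489 against 4.51, 112 and 2.06 CPM, a difference of 4.91 ± 1.65 (adjusted p 0.0395). That call was lost with edgeR (0.15), with DESeq2 (0.086), without the pancreas-rich libraries (0.08), and without C57BL/6 replicate 1 (0.13) or 3 (0.14) or NZB/W-F1 replicate 1 (0.098), 2 (0.07) or 3 (0.098). As in Hemgn, C57BL/6 replicate 2 stood between the other 2 C57BL/6 libraries and the NZB/W-F1 libraries.

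Alas2 and the major globin genes, which serve haemoglobin production, were not called higher in the limma fit of all 16 libraries. Alas2, the enzyme that starts haem synthesis in red cells, was at 1740, 1320 and 1864 against 490, 1028 and 123 CPM and did not pass the test (difference 2.04 ± 1.20, adjusted p 0.211). The beta-globin gene Hbb-bs was at 29330, 25840 and 29880 against 15650, 19130 and 4694 CPM (difference 1.34 ± 1.04, adjusted p 0.342). Of its 31-base words, 54.4% occur in other genes, most of all in Hbb-bt, so its count is uncertain. In both genes all NZB/W-F1 libraries lay above all C57BL/6 libraries, and neither difference passed the test.

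Both alpha-globin genes are given as uncertain because their transcripts are nearly identical. Hba-a2, chr11:32296489-32297298, was at 1.54, 1.79 and 0.942 CPM in the NZB/W-F1 libraries and 656, 624 and 343 CPM in the C57BL/6 libraries, and 92.6% of its words occur in other genes, most of all in Hba-a1. It was the 1 erythroid member called lower (difference -8.11 ± 0.61, adjusted p 1.1e-06), and it stayed lower at 3 months (-9.23) and 6 months (-8.54). Hba-a1 was at 9909, 10820 and 9747 against 2699, 4411 and 967 CPM. It was not called in the limma fit (difference 2.17 ± 1.10, adjusted p 0.15). Over 26 alternatives its adjusted p ran from 0.023 to 0.37, so at least 1 of them called it higher. The summed erythroid level above therefore includes reads that the counting may have divided between near-identical copies.

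The number of erythroid calls depended on the test and on single libraries, while none of the named erythroid differences changed sign in any alternative. It was 5 with edgeR and 15 with DESeq2, 4 without C57BL/6 replicate 1, 5 without C57BL/6 replicate 3, 5 without NZB/W-F1 replicate 1, 10 without NZB/W-F1 replicate 2, 6 without NZB/W-F1 replicate 3 and 11 without the pancreas-rich libraries. C57BL/6 replicate 1, the library with 50600 CPM of pancreas genes, was not the one with the lowest erythroid sum, and the part of these reads in the result was not tested beyond leaving that library out.

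Later ages did not show the erythroid pattern. The median difference of the 27 genes was -1.20 at 3 months and -1.24 at 6 months, and Hba-a2 was the only member called at either age, each time as lower, against 3.11% and 1.31% of all genes called lower (6.81% and 3.95% higher). Without the pancreas-rich library of 3 months the median was -2.29, and without the 6-month library of low Xist it was -0.15. Klf1 differed by -0.63 at 3 months and -1.90 at 6 months, and Sptb by 0.22 and -0.26. Erythroid sums at 3 months were 1590, 18300 and 4220 CPM in NZB/W-F1 and 7690 and 21800 CPM in C57BL/6, and at 6 months 5200, 33800 and 1320 CPM and 32900 and 10200 CPM. NZB/W-F1 libraries of 1 age thus varied by an order of magnitude or more at 3 and 6 months. The change of the strain difference from 1 month was called for 0 of the 27 genes at 3 months and at 6 months in limma and edgeR, and for 1 and 0 in DESeq2, although 21 and 25 of them had an unadjusted p under 0.05. Over all genes that change was called for 10.8% at 3 months (7.75% higher and 3.09% lower) and for 0.979% at 6 months (0.846% higher and 0.132% lower).

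The stretches before the starts of 3 of these genes are shown because their levels moved together. The sequences are from RefSeq (GRCm38.p6, which is the C57BL/6 reference and not the sequence of the New Zealand strains), as the longest run without an annotated exon in the 250 bases before the start. They cover chr8:84901732-84901927 on the plus strand for Klf1, chr12:76710548-76710797 on the minus strand for Sptb and chr9:21963577-21963826 on the minus strand for Epor. Capitals mark GATAA, the core bound by GATA factors, and CACCC, the core bound by KLF factors, on either strand (TTATC and GGGTG on the reverse).
Klf1: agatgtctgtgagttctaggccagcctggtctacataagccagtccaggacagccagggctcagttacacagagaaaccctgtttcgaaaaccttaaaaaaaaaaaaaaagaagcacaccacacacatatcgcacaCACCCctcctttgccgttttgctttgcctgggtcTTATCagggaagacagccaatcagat
Sptb: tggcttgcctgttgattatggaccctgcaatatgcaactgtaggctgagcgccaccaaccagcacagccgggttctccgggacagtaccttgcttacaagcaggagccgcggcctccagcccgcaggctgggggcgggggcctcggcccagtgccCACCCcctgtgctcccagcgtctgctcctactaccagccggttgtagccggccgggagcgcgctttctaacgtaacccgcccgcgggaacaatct
Epor: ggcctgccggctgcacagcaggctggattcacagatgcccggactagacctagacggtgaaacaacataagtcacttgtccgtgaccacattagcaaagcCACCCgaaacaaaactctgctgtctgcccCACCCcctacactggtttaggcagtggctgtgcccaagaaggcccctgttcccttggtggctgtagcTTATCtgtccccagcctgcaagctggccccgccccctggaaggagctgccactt
Klf1 had 1 GATAA on the reverse strand and 1 CACCC, Sptb had 1 CACCC, and Epor had 1 GATAA on the reverse strand and 2 CACCC. Over the 22 windows of 250 bases available for 20 of the 27 erythroid genes, 15 (68.2%) held GATAA and 18 (81.8%) held CACCC. Among 32851 windows of all genes the shares were 22.6% and 52%. Overlapping matches were each counted, and a match describes letters only.

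**Figure D2:**
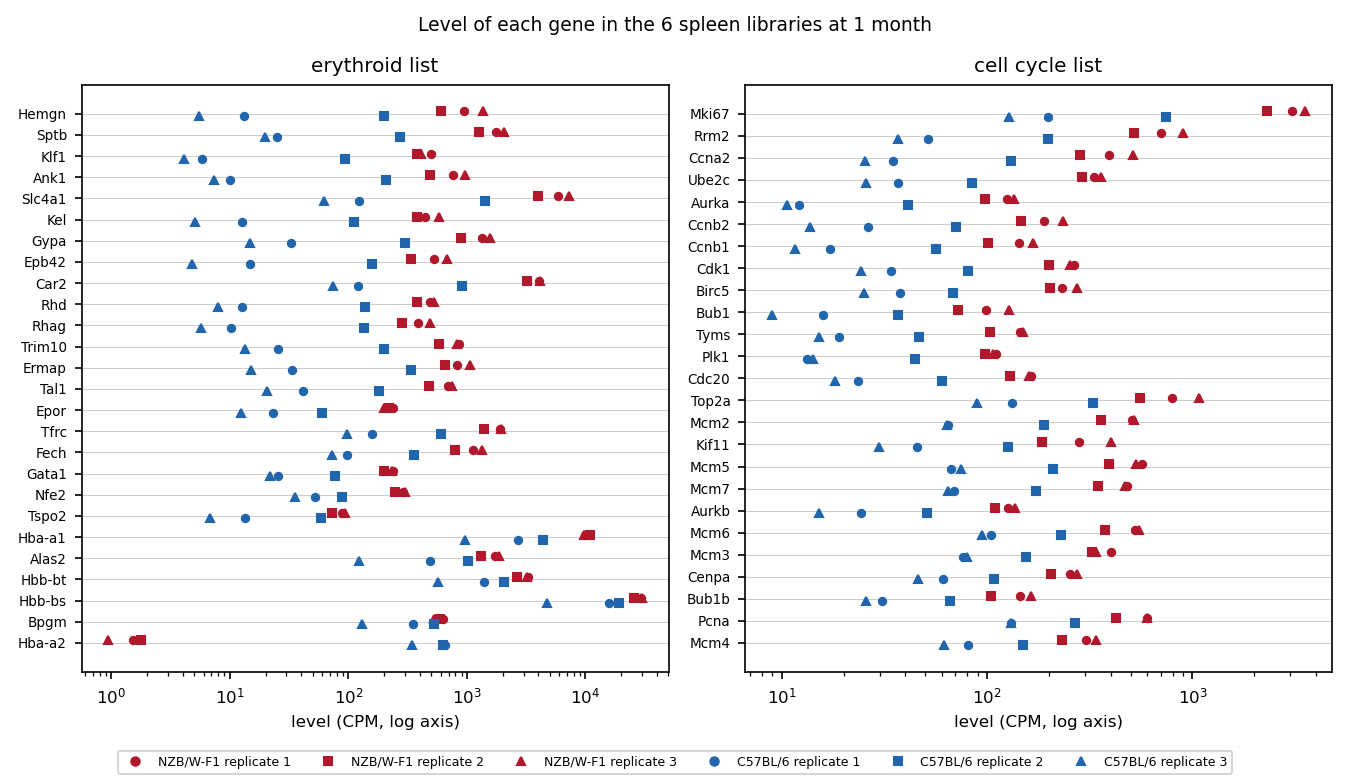
Level of 26 of the 27 measured erythroid genes (left) and of each cell cycle gene (right) in the 6 libraries of 1 month (CPM, log axis), with NZB/W-F1 in red and C57BL/6 in blue and a marker shape per replicate. Apart from Hba-a2, all red points lie to the right of all blue points, and C57BL/6 replicate 2 (square) is the highest blue point in nearly every row.

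Genes of cell division rose as a complete list. All 25 measured members were called higher in NZB/W-F1, against 13.4% of all genes, with a median difference of 2.32. In all 25 every NZB/W-F1 library lay above every C57BL/6 library, against 20% of all genes. The summed level was 10900, 8160 and 12300 CPM in NZB/W-F1 and 1410, 3720 and 1130 CPM in C57BL/6. C57BL/6 replicate 2 was again the highest of its strain, so cell cycle and erythroid sums ranked the 6 libraries in the same order. The count was between 20 and 25 with any 1 library of this age left out, and 24 without the pancreas-rich libraries.

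Genes of DNA replication were among those with the smallest p-values of the list. Mcm3, a subunit of the replicative helicase (chr1:20802968-20820312), was at 401, 324 and 339 CPM in the NZB/W-F1 libraries and 76.5, 154 and 79.6 CPM in the C57BL/6 libraries. The difference was 1.84 ± 0.34, with an adjusted p of 0.00266. Mcm5, another subunit, was at 566, 391 and 533 against 66.9, 209.8 and 74.5 CPM (difference 2.27 ± 0.46, adjusted p 0.00467). Mcm6, a further subunit, was at 526, 376 and 548 against 104, 229 and 93.9 CPM (difference 1.86 ± 0.40, adjusted p 0.00626). In each gene the lowest NZB/W-F1 library exceeded the highest C57BL/6 library, which was replicate 2.

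Genes of mitosis were higher as well. Mki67, the proliferation antigen Ki-67 (chr7:135689784-135716361), was at 3058, 2310 and 3544 CPM in the NZB/W-F1 libraries and 198, 745 and 127 CPM in the C57BL/6 libraries. The difference was 3.46 ± 0.76 with an adjusted p of 0.00712. Cdc20, which activates the ubiquitin ligase that ends mitosis, was at 164, 129.5 and 160.4 against 23.6, 60.5 and 18.2 CPM (difference 2.32 ± 0.45, adjusted p 0.00385). Top2a, the topoisomerase that untangles chromosomes, was at 793, 558 and 1070 against 133, 327 and 89.7 CPM (difference 2.30 ± 0.55, adjusted p 0.00962). None of these lost its call with a single library left out.

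Strain differences in these genes were near 0 at later ages. The median of the 25 genes was 0.03 at 3 months and -0.33 at 6 months, and no member was called at either, with 0 at an unadjusted p under 0.05 and 0 called by edgeR or DESeq2. Without the pancreas-rich library of 3 months the median was -0.38, and without the 6-month library of low Xist it was 0.14. The change of the strain difference from 1 to 3 months was called for 7 of the 25, all lower at 3 months (4 by edgeR and 13 by DESeq2). From 1 to 6 months it was called for 0 by limma and edgeR and for 13 by DESeq2, with 25 at an unadjusted p under 0.05. Over all genes the change from 1 to 3 months was called 0 times without NZB/W-F1 replicate 1 of 1 month or C57BL/6 replicate 1 of 3 months. In kidneys of the same animals at 1 month, Mki67 differed by 0.34 (adjusted p 0.62) and Cdc20 by 1.18 (adjusted p 0.032), and in brain by 0.78 (adjusted p 0.11) and -0.031 (adjusted p 0.97). Klf1 differed in the kidney by -0.84 (adjusted p 0.034). The tissues share animals and were fitted separately, so these values are set side by side only.

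The same display for 3 cell cycle genes uses CCAAT, the core bound by NF-Y, and TTTGAA, the cell cycle homology element. The windows are chr4:118437353-118437593 for Cdc20, chr11:99024190-99024439 for Top2a and chr7:135716380-135716629 for Mki67, each on the minus strand, from the same RefSeq table and build. Capitals mark either motif on either strand (ATTGG and TTCAAA on the reverse).
Cdc20: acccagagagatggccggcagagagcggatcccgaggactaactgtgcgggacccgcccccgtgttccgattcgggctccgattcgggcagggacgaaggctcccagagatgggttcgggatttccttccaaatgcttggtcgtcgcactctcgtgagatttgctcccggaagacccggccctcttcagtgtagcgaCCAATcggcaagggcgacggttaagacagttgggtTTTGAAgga
Top2a: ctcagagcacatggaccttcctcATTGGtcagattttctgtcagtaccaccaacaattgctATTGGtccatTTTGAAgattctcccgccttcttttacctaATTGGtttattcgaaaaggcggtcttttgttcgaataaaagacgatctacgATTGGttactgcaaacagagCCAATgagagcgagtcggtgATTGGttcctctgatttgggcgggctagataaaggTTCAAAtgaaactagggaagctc
Mki67: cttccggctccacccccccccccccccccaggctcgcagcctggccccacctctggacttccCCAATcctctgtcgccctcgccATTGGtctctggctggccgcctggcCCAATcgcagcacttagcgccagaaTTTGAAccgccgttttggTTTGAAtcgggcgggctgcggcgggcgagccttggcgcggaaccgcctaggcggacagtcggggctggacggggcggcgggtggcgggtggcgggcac
Cdc20 held 1 CCAAT and 1 TTTGAA, Top2a held 1 CCAAT forward and 5 reverse with 1 TTTGAA on each strand, and Mki67 held 2 CCAAT forward, 1 reverse and 2 TTTGAA. Of 23 windows for 22 of the 25 genes, 21 (91.3%) held CCAAT against 33.8% of all windows, and 8 (34.8%) held TTTGAA against 16%.

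Immunoglobulin constant genes split by class. Of 12 measured, 5 were higher, 1 was lower and 6 were not called, with a median of 0.50 against -0.16 for all genes. Over all genes 13.4% were higher and 16% lower. Ighg2c, the constant region of the IgG2c heavy chain, was at 280.5, 329 and 211 CPM in the NZB/W-F1 libraries and 7.67, 7.79 and 8.34 CPM in the C57BL/6 libraries. Every NZB/W-F1 library was more than an order of magnitude above every C57BL/6 library, with a difference of 5 ± 0.32 and an adjusted p of 1.79e-07. Mouse strains carry either Ighg2c or the related Ighg2a, and how reads of the New Zealand strains fell on this name was not tested. Ighg2b, the IgG2b heavy chain, was at 112, 136 and 63.4 against 19.6, 18.2 and 17.4 CPM (difference 2.39 ± 0.23, adjusted p 1.1e-05). Ighg1, the IgG1 heavy chain, was at 43.1, 119 and 10.1 against 0.564, 1.59 and 2.16 CPM (difference 4.39 ± 0.76, adjusted p 0.0019). Ighg3, the IgG3 heavy chain, was at 199, 148 and 34.5 against 24.6, 16.3 and 15.5 CPM (difference 2.42 ± 0.57, adjusted p 0.0093). The fifth, the kappa light chain constant gene Igkc (difference 1.21 ± 0.36, adjusted p 0.0231), lost its call with any of the 6 libraries left out (adjusted p 0.05 to 0.068). In Ighg1 the NZB/W-F1 libraries differed among themselves by an order of magnitude, replicate 3 being lowest, yet none overlapped C57BL/6.

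The heavy chains of unswitched cells were not called higher. Ighd, the IgD chain of mature resting B cells, was lower in NZB/W-F1, at 311, 326 and 262 against 811, 662 and 832 CPM (difference -1.36 ± 0.29, adjusted p 0.00575). Ighm, the IgM chain, was at 5378, 5980 and 6782 against 4181, 3624 and 3183 CPM and was not called (difference 0.73 ± 0.48, adjusted p 0.258). All its NZB/W-F1 libraries lay above all its C57BL/6 libraries. Jchain, which joins IgM and IgA into polymers, was at 919, 1123 and 1447 against 475, 253 and 197 CPM (difference 1.99 ± 0.34, adjusted p 0.0019). Over the plasma cell list, 2 of 13 genes were higher (Jchain and Creld2, an endoplasmic reticulum chaperone) and 2 were lower (Slamf7, a surface receptor, and Irf4, the factor that drives plasma cell formation), with a median of 0.062. These shares were near the 13.4% and 16% of all genes. The same list had a median of 1.18 with 8 higher at 3 months and 1.57 with 10 higher at 6 months, where the medians were 0.99 (5 higher) without the pancreas-rich library of 3 months and 1.52 (10 higher) without the 6-month library of low Xist. Over all genes 6.81% were called higher at 3 months and 3.95% at 6 months. Ighg2c stayed higher at both ages (3.46 and 3.54).

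B cell markers were lower. Of 16 measured, 0 were higher and 6 were lower (against 13.4% and 16% of all genes), and 10 were not called, with a median of -0.81. In 15 all NZB/W-F1 libraries were below all C57BL/6 libraries, against 28.5% of all genes. The sum over the 16 genes was 3520, 3730 and 2440 CPM in NZB/W-F1 and 5550, 5180 and 6120 CPM in C57BL/6. Ebf1, the factor that commits cells to the B lineage, was at 41.1, 45 and 39.4 CPM in the NZB/W-F1 libraries and 81.7, 88.3 and 83 CPM in the C57BL/6 libraries (difference -1 ± 0.20, adjusted p 0.00475). Bank1, a scaffold of B cell receptor signalling, was at 123, 109.5 and 109.6 against 197, 224 and 202 CPM (difference -0.86 ± 0.18, adjusted p 0.00583). Fcer2a, the low-affinity IgE receptor of follicular B cells, was at 73.9, 81.4 and 51.2 against 187, 188 and 264 CPM (difference -1.63 ± 0.36, adjusted p 0.00736). The number of B cell calls was 3 without C57BL/6 replicate 1, C57BL/6 replicate 3, NZB/W-F1 replicate 1, NZB/W-F1 replicate 3 or the pancreas-rich libraries, and 11 with only the 6 libraries fitted.

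Conventional dendritic cell genes were also lower. Of 11 measured, 8 were lower and 0 higher, against 16% and 13.4% of all genes, with a median of -0.89. Zbtb46, a transcription factor of this lineage, was at 19.7, 22.2 and 22.1 CPM in the NZB/W-F1 libraries and 53.4, 50.8 and 40.6 CPM in the C57BL/6 libraries, and its groups were far apart relative to their spread (difference -1.15 ± 0.17, adjusted p 0.000766). Clec9a, a receptor by which type 1 dendritic cells sense dead cells, was at 7.24, 12.2 and 10.8 against 45.9, 29 and 23.5 CPM (difference -1.63 ± 0.30, adjusted p 0.00296). Cd209a, a lectin of type 2 dendritic cells and monocyte-derived cells, was at 1.9, 2.69 and 1.73 against 12.2, 8.14 and 11 CPM (difference -2.07 ± 0.36, adjusted p 0.00192). Flt3, the receptor of their growth factor, was at 13.8, 16.1 and 18.4 against 38.8, 32.6 and 34.5 CPM (difference -1.11 ± 0.21, adjusted p 0.00323). Without C57BL/6 replicate 1, NZB/W-F1 replicate 1, NZB/W-F1 replicate 3 or the pancreas-rich libraries, 5 members were called.

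T cell and red pulp macrophage markers gave no call in the fit of all 16 libraries. None of 19 T cell genes passed the test (median -0.18), with 1 at an unadjusted p under 0.05 and 0 by edgeR or DESeq2, and 2 were lower with only the 6 libraries fitted. None of 17 red pulp macrophage genes did (median -0.55), with 5 at an unadjusted p under 0.05, 1 by edgeR and 1 by DESeq2, and 1 without C57BL/6 replicate 2, 2 without C57BL/6 replicate 3 and 3 with only the 6 libraries fitted. Hmox1, the enzyme that breaks down haem in these macrophages, was at 147, 135 and 192 against 781, 514 and 223 CPM (difference -1.51 ± 0.55, adjusted p 0.053, or 0.033 by edgeR and 0.011 by DESeq2), with C57BL/6 replicate 1 highest and replicate 3 close to NZB/W-F1. Put together after their values were seen, 10 lists (B cells, marginal zone B cells, T cells, regulatory T cells, cytotoxic cells, red pulp and marginal zone macrophages, monocytes, and conventional and plasmacytoid dendritic cells) held 113 genes, of which 29 were called lower, against 16% of all genes, with a median of -0.56. The neutrophil, plasma cell and germinal centre lists, with medians of 1.09, 0.062 and -0.14, are not among them. Erythroid genes held 5.86% to 7.14% of NZB/W-F1 reads and 0.796% to 3.63% of C57BL/6 reads. Whether the lower leukocyte values moved with that share was not tested.

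**Figure D3:**
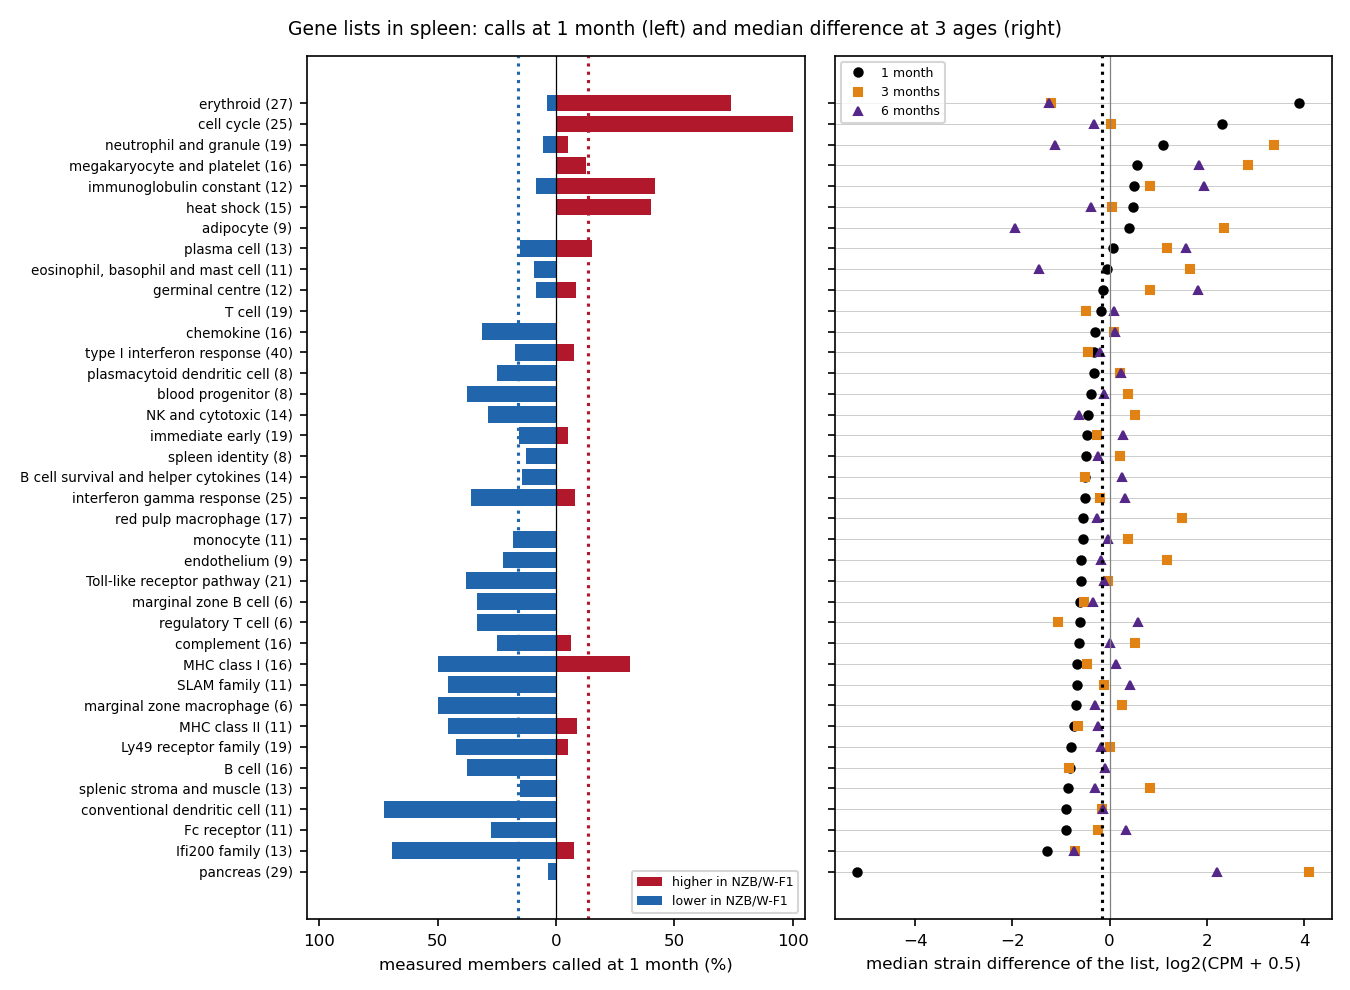
Left, the percentage of measured members of each gene list called higher (red) or lower (blue) in NZB/W-F1 at 1 month, with the number measured in brackets and dotted lines at the percentages over all genes (13.4% and 16%). Right, the median strain difference of each list (log2 of CPM + 0.5) at 1, 3 and 6 months, the dotted line being the all-gene median at 1 month; the erythroid and cell cycle medians of 3.89 and 2.32 at 1 month are not seen at the later ages.

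Genes of the interferon-inducible p200 family, whose proteins include the DNA sensor AIM2, were lower with 1 exception. Of 13 measured, 9 were lower and 1 was higher, against 16% and 13.4% of all genes, with a median of -1.29. Ifi202b, chr1:173962568-173982744, was the exception, at 35.6, 28.7 and 39.6 CPM in the NZB/W-F1 libraries and 0.113, 0 and 0 CPM in the C57BL/6 libraries. A single read was found in the 3 C57BL/6 libraries, which gives a ratio of 836-fold (95% counting interval 149.6 to 33030), and the fitted difference was 6.03 ± 0.30 (adjusted p 1.69e-08). It stayed higher at 3 months (6.53), at 6 months (6.58, or 6.25 without the library of low Xist) and in the kidney of the same animals (2.70). Ifi202b lies in Nba2, an interval of chromosome 1 through which NZB alleles are known to raise lupus susceptibility.

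Its neighbours went the other way. Mndal was at 55.3, 56.8 and 44.7 CPM in the NZB/W-F1 libraries and 256, 176 and 179 CPM in the C57BL/6 libraries (difference -1.94 ± 0.32, adjusted p 0.00143). Ifi203 was at 92.6, 103 and 92 against 250.1, 243 and 207 CPM (difference -1.27 ± 0.23, adjusted p 0.00253), and Ifi205 at 3.98, 2.78 and 4.4 against 10.7, 16.1 and 8.24 CPM (difference -1.50 ± 0.30, adjusted p 0.0041). All C57BL/6 libraries exceeded all NZB/W-F1 libraries in these 3 genes, and the calls held with each single library left out. At 3 months 6 of the 13 were lower (4 without the pancreas-rich library of that age) and 1 higher, against 3.11% and 6.81% of all genes. At 6 months limma called 0 lower and 1 higher, with a median of -0.73; in either direction 9 were at an unadjusted p under 0.05, and edgeR called 1 and DESeq2 3.

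Interferon-response genes showed no common direction. Of 40 genes of the type I list, 3 were higher and 7 lower, shares below the background in the first case (13.4%) and near it in the second (16%), with a median of -0.31. Isg20, an exonuclease that degrades viral RNA, was at 366, 276 and 299 CPM in the NZB/W-F1 libraries and 36.9, 102 and 24.8 CPM in the C57BL/6 libraries (difference 2.77 ± 0.62, adjusted p 0.00759). Oasl2, an oligoadenylate synthetase-like protein, went down, at 16.5, 22.2 and 20.9 against 32.7, 58.4 and 91.7 CPM (difference -1.49 ± 0.33, adjusted p 0.00775). Isg15, the ubiquitin-like modifier, was at 147, 127 and 123 against 34.1, 66.6 and 27.5 CPM (difference 1.72 ± 0.55, adjusted p 0.0317), and that call was lost without C57BL/6 replicate 1 (0.1), C57BL/6 replicate 3 (0.11), NZB/W-F1 replicate 1 (0.095), 2 (0.066) or 3 (0.065) and without the pancreas-rich libraries. The higher count was 1 without C57BL/6 replicate 1, C57BL/6 replicate 3, NZB/W-F1 replicate 1, NZB/W-F1 replicate 3 or the pancreas-rich libraries, 2 without NZB/W-F1 replicate 2, and 5 with only the 6 libraries fitted. The lower count was 3 without C57BL/6 replicate 1 and 4 without C57BL/6 replicate 2 or NZB/W-F1 replicate 1.

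The interferon gamma list had 2 higher and 9 lower of 25, against 13.4% and 16% of all genes, with a median of -0.51. Igtp, an immunity-related GTPase that attacks pathogen vacuoles, was at 185, 165 and 161 CPM in the NZB/W-F1 libraries and 71.4, 68 and 73.9 CPM in the C57BL/6 libraries (difference 1.25 ± 0.20, adjusted p 0.00112). At 1 month Igtp differed by -0.308 in kidney (adjusted p 0.49) and by -0.911 in brain (adjusted p 0.017). Gbp9, a guanylate-binding protein, was lower, at 70.1, 68.1 and 51.3 against 156, 144 and 112 CPM (difference -1.11 ± 0.24, adjusted p 0.00657). Tgtp2, another GTPase, was at 4.43, 1.97 and 3.3 against 13.3, 24.1 and 12.9 CPM (difference -2.21 ± 0.38, adjusted p 0.00183), but 90.5% of its words occur in other genes, most of all in Tgtp1, and its count is uncertain. Lower calls numbered 4 with DESeq2 and with median-of-ratios scaling, 5 without C57BL/6 replicate 1 or NZB/W-F1 replicate 1, 4 without NZB/W-F1 replicate 2, 3 without NZB/W-F1 replicate 3 and 4 without the pancreas-rich libraries. Higher calls numbered 1 without C57BL/6 replicate 1, NZB/W-F1 replicate 1 or 3, or the pancreas-rich libraries.

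Windows before 3 genes of these lists show where the core of the interferon-stimulated response element occurs and where it does not. The core searched is GAAA, any 2 bases and GAAA again. They cover chr11:58199306-58199555 on the plus strand for Igtp, chr1:174031811-174032005 on the minus strand for Ifi205 and chr1:173982845-173983094 on the minus strand for Ifi202b, from RefSeq, GRCm38.p6.
Igtp: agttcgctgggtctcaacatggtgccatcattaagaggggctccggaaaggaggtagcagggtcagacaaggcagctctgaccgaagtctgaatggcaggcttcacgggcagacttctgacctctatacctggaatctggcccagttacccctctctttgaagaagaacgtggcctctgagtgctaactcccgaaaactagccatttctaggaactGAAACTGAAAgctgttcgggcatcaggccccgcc
Ifi205: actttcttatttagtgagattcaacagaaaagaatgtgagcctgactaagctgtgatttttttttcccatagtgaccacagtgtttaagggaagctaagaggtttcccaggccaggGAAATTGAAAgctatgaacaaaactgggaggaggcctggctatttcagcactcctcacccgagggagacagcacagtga
Ifi202b: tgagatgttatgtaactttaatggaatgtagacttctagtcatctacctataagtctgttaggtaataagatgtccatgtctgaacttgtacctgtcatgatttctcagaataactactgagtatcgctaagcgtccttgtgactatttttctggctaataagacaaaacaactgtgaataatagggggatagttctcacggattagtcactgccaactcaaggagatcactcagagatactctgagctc
Igtp and Ifi205 held 1 match each and Ifi202b none, in the C57BL/6 reference. The core was present in 10 of 14 windows (71.4%) of 12 p200 family genes and in 14 of 37 (37.8%) of 30 type I genes, against 2.98% of all windows. Capitals mark the match, and both strands were searched.

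Antigen presentation genes separated by locus. Of 11 class II genes, 1 was higher and 5 were lower, against 13.4% and 16% of all genes, with a median of -0.72. H2-Ea-ps, the E alpha chain, which is a pseudogene in C57BL/6 and is annotated under that name, was at 909, 883 and 545 CPM in the NZB/W-F1 libraries and 0.226, 0.177 and 0.294 CPM in the C57BL/6 libraries. The difference of 10.02 ± 0.28 (adjusted p 1.07e-10) was the largest rise among the genes named here, and it was 11.07 at 3 months, 11.08 at 6 months and 6.03 in kidney. H2-Eb2, an E beta-like chain, was at 8.23, 6.55 and 3.61 against 54.6, 57.7 and 70.7 CPM (difference -3.27 ± 0.30, adjusted p 7.38e-06). The classical chain H2-Ab1 and the invariant chain Cd74 were not called (adjusted p 0.133 and 0.194). H2-DMb1 and H2-Ob, which load and restrain peptide loading, had differences of -1.03 ± 0.26 and -1.18 ± 0.31 (adjusted p 0.0127 and 0.0153), and both calls were lost without C57BL/6 replicate 1 (0.053 and 0.054), C57BL/6 replicate 3 (0.05 and 0.05) or NZB/W-F1 replicate 3 (0.051 and 0.059). The count of lower class II genes was 1 without C57BL/6 replicate 1, C57BL/6 replicate 3 or NZB/W-F1 replicate 3, and 3 without NZB/W-F1 replicate 1 or 2, without the pancreas-rich libraries or with median-of-ratios scaling.

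Of 16 class I genes, 5 were higher and 8 lower, against 13.4% and 16% of all genes, with a median of -0.66. H2-K1, a classical class I heavy chain, was at 806, 880.1 and 515 CPM in the NZB/W-F1 libraries and 2005, 1817 and 2149 CPM in the C57BL/6 libraries (difference -1.47 ± 0.26, adjusted p 0.00233), with no overlap. The non-classical genes H2-Q1 and H2-Q2 were higher, H2-Q1 at 13.7, 11.5 and 8.63 against 0, 0 and 0.686 CPM (difference 4.12 ± 0.34, adjusted p 2.49e-06) and H2-Q2 at 18, 18.6 and 13.2 against 1.35, 0.177 and 0.49 CPM (difference 3.98 ± 0.32, adjusted p 2.38e-06). In kidney at 1 month H2-Q1 differed by 2.37 (adjusted p 6.5e-07) and H2-Q2 by -0.524 (adjusted p 0.066). In brain both were lower, by -0.855 (adjusted p 0.043) and -1.02 (adjusted p 0.04). The lower count was 4 when C57BL/6 replicate 1 or NZB/W-F1 replicate 3 was omitted and 5 when C57BL/6 replicate 3 or NZB/W-F1 replicate 1 was, without the pancreas-rich libraries or with median-of-ratios scaling. Class I and II genes differ in sequence between mouse strains, and how that affected counting on the C57BL/6 reference was not tested.

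Genes of the Toll-like receptor, SLAM and Ly49 lists were more often lower. In the Toll-like receptor pathway 8 of 21 genes were lower and 0 higher, against 16% and 13.4% of all genes (median -0.59). Tlr1, which senses bacterial lipopeptides together with TLR2, was at 37.4, 36.9 and 30.9 CPM in the NZB/W-F1 libraries and 131, 90.6 and 124 CPM in the C57BL/6 libraries (difference -1.69 ± 0.28, adjusted p 0.00132). Ly86, a partner of the Toll-like receptor homologue CD180 of B cells, was at 77.2, 76.3 and 54.2 against 157, 123 and 139 CPM (difference -1.02 ± 0.22, adjusted p 0.00663), and Cd180 itself was at 73.2, 54.7 and 72.5 against 109.5, 118 and 102 CPM (difference -0.72 ± 0.17, adjusted p 0.0103). Tlr7, the sensor of single-stranded RNA, was at 22.6, 20.1 and 37.5 against 62.4, 70.3 and 41 CPM, and its call (difference -1.12 ± 0.30, adjusted p 0.0169) was lost without C57BL/6 replicate 1 (0.065), NZB/W-F1 replicate 1 (0.066) or NZB/W-F1 replicate 2 (0.062). The pathway's lower count was 4 without C57BL/6 replicate 1 or NZB/W-F1 replicate 2, 3 without NZB/W-F1 replicate 1 and 5 without the pancreas-rich libraries.

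Of 11 genes of the SLAM family and its adaptors, which signal between blood cells, 5 were lower and 0 higher (median -0.68). Over all genes 16% were lower and 13.4% higher. Slamf8, a receptor of macrophages, was at 5.16, 7.18 and 5.97 against 23.1, 20.4 and 15 CPM (difference -1.59 ± 0.23, adjusted p 0.000567), and Slamf7 was at 25, 23.2 and 28.7 against 56.2, 56.6 and 46.1 CPM (difference -1.03 ± 0.17, adjusted p 0.00162). At 6 months Slamf7 differed by 0.71. The lower count was 2 without C57BL/6 replicate 1 or the pancreas-rich libraries and 3 without NZB/W-F1 replicate 1 or 3.

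The list plotted as the Ly49 receptor family held 19 measured genes, namely Ly49 receptors for class I molecules, Klrc and Klrb1 receptors and Clec2 relatives. Of these, 1 was higher and 8 were lower, against 13.4% and 16% of all genes (median -0.80). Klra17 was the higher one, at 9.77, 11.7 and 15.5 against 2.93, 2.48 and 1.96 CPM (difference 2.10 ± 0.30, adjusted p 0.000443). Klra3 was at 0, 0 and 0.314 against 5.08, 1.59 and 1.76 CPM (difference -2.34 ± 0.40, adjusted p 0.00174), with no read in 2 of the 3 NZB/W-F1 libraries. In the cytotoxic list 4 of 14 were lower, against 16% of all genes. Among them were the protease Gzmb at 2.8, 3.77 and 2.98 against 22.2, 15.6 and 14.8 CPM (difference -2.28 ± 0.42, adjusted p 0.00296) and the chemokine Ccl5 at 35.2, 36.6 and 27.9 against 96.7, 100.4 and 71.5 CPM (difference -1.41 ± 0.22, adjusted p 0.000854). The lower count of the first of these lists, 8 of 19, was 2 without C57BL/6 replicate 1, 4 without NZB/W-F1 replicate 1 or 3, 5 without NZB/W-F1 replicate 2 or with a filter at a mean of 5 CPM, and 3 without the pancreas-rich libraries.

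Heat shock genes were higher in part. Of 15, 6 were higher and 0 lower, against 13.4% and 16% of all genes, with a median of 0.48. Dnajb1, a co-chaperone, was at 139.6, 152 and 138 CPM in the NZB/W-F1 libraries and 42.3, 79.8 and 67.9 CPM in the C57BL/6 libraries (difference 1.22 ± 0.24, adjusted p 0.00378). Hsp90aa1, the inducible HSP90, was at 806, 628 and 586 against 171, 334 and 204 CPM (difference 1.55 ± 0.31, adjusted p 0.00412), and 51.5% of its words occur in other genes, most of all in Gm12346, which makes it uncertain. The count was 2 without C57BL/6 replicate 1, NZB/W-F1 replicate 1 or the pancreas-rich libraries, and 4 with C57BL/6 replicate 3 left out.

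Granulocyte and platelet lists had medians above 0 with few calls. Of 19 neutrophil and granule genes, 1 was higher and 1 lower, against 13.4% and 16% of all genes, though the median was 1.09. The higher count was 10 with only the 6 libraries fitted, 3 with median-of-ratios scaling, a pseudocount of 1 or the replicate block, and 0 with a pseudocount of 0.1 or with any of the 6 libraries left out. Elane, neutrophil elastase, was at 68.7, 94.8 and 100 against 29.7, 17.7 and 26 CPM (difference 1.84 ± 0.70, adjusted p 0.0612), with no overlap, and it was called with DESeq2 (0.041), median-of-ratios scaling (0.048), a pseudocount of 1 (0.047), only the 6 libraries (0.0032) or without 3-month C57BL/6 replicate 1 (0.034), 3-month C57BL/6 replicate 2 (0.034) or 3-month NZB/W-F1 replicate 3 (0.049). The 1 higher call, the granule protease Ctsg (difference 2.04 ± 0.66, adjusted p 0.0339), was lost with any of the 6 libraries left out (adjusted p 0.069 to 0.088), and 4 genes were higher by DESeq2. At 3 months 15 of the 19 were higher, against 6.81% of all genes. Of 16 megakaryocyte and platelet genes, 13 were higher at 3 months and 11 at 6 months, against 6.81% and 3.95% of all genes. At 1 month 2 were higher, against 13.4% of all genes. The 2 became 0 without C57BL/6 replicate 1, C57BL/6 replicate 3, NZB/W-F1 replicate 3 or the pancreas-rich libraries and 1 without NZB/W-F1 replicate 1 or 2. Gfi1b, a repressor shared by platelet and red cell precursors, was at 130.5, 104 and 146 against 13.9, 54 and 6.37 CPM (difference 2.85 ± 0.80, adjusted p 0.0187). Its call was lost without C57BL/6 replicate 1 (0.068) or 3 (0.079), NZB/W-F1 replicate 1 (0.059) or 3 (0.054), or the pancreas-rich libraries (0.058).

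Several of the largest single differences were in genes with no common role. Npy, the neuropeptide Y precursor, chr6:49822710-49829507, was at 17.3, 37.1 and 25.3 CPM in the NZB/W-F1 libraries and 0.113, 0 and 0 CPM in the C57BL/6 libraries, from 1 read in C57BL/6, a ratio of 662-fold (95% counting interval 119 to 26200) and a fitted difference of 5.59 ± 0.29 (adjusted p 2.16e-08). Ccnb1ip1, a ubiquitin ligase of meiotic recombination, was at 30.4, 31.5 and 13 against 0, 0 and 0 CPM, with no read in C57BL/6 and a level at least 222-fold higher in NZB/W-F1 against a floor of 3 reads over the group. Eno1b was at 24.4, 28.4 and 16.5 against 0.113, 0.177 and 0.588 CPM (difference 4.91 ± 0.28), but 89.2% of its words occur in other genes, most of all in Eno1, so it is uncertain. In kidney at 1 month the differences were 2.87 for Npy and 6.35 for Eno1b. In brain they were -0.33 (adjusted p 0.29) and 5.29.

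Genes nearly silent in NZB/W-F1 were led by Chil3, a chitinase-like protein secreted by macrophages and neutrophils (chr3:106147554-106167564). It had no read in the 3 NZB/W-F1 libraries and 288, 142 and 139 CPM in C57BL/6, which puts it at least 1839-fold lower against the floor of 3 reads over the group (fitted adjusted p 2.41e-07). Gabra3, a GABA receptor subunit, was at 0, 0.718 and 0.471 against 29.1, 20.9 and 47.7 CPM (difference -5.22 ± 0.46, adjusted p 4.93e-06). Ffar1, a receptor of free fatty acids, was at 0.362, 1.26 and 0.157 against 26.1, 30.3 and 37.3 CPM (difference -4.97 ± 0.41, adjusted p 2.79e-06). No library of one strain came near the other in these genes. Eps8l1, an actin regulator, was at 0.181, 0.269 and 0.314 against 23.8, 18.8 and 39.3 CPM and Rab6b, a vesicle GTPase, at 0.724, 1.88 and 4.87 against 25.4, 15.2 and 63.5 CPM (differences -5.14 ± 0.63 and -3.57 ± 0.53). The olfactory receptor gene Olfr1033 had no read in NZB/W-F1 against 10.4, 5.84 and 26.8 CPM, at least 153-fold lower. Vmn2r97, a vomeronasal receptor gene, differed by -3.96 ± 0.33, and Vnn3, a pantetheinase, was lower by a ratio of 85.6-fold (95% counting interval 23.3 to 713).

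**Figure D4:**
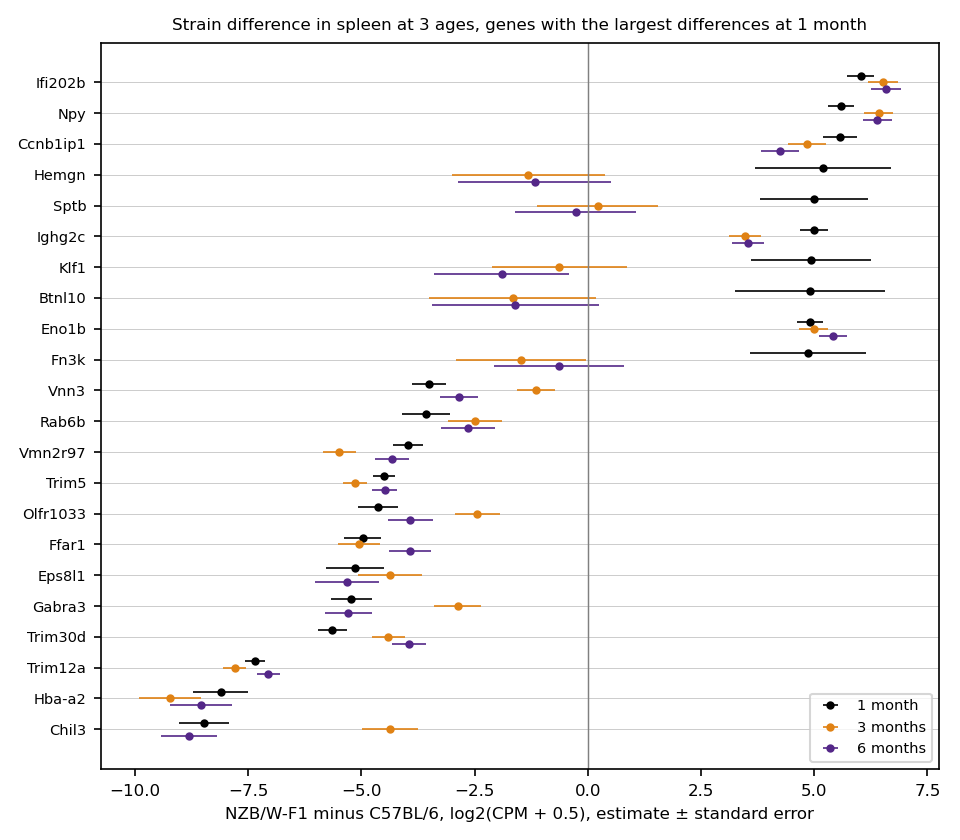
Strain difference (NZB/W-F1 minus C57BL/6, log2 of CPM + 0.5, estimate ± SE) at 1, 3 and 6 months for 22 of the 24 genes with the largest differences at 1 month. Hemgn, Sptb, Klf1, Btnl10 and Fn3k are near or below 0 at the later ages, and the other genes keep the side they have at 1 month.

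Calls at 1 month were compared with those of the later ages, whose animals and libraries are different. Only at 1 month do the strains fall in separate runs of sample numbers. Of the 4449 genes called at 1 month, 616 were called in the same direction at 3 months, which is 13.8% of the 1-month and 41.1% of the 3-month calls. At 6 months 435 were, 9.78% of the 1-month and 54.6% of the 6-month calls. At all 3 ages 378 genes were called in 1 direction, 251 higher and 127 lower, which is 8.5% of the 1-month, 25.2% of the 3-month and 47.5% of the 6-month calls. Opposite directions were called for 78 genes at 1 and 3 months and for 23 at 1 and 6 months. The count at all 3 ages was 357 without the pancreas-rich library of 3 months, 338 without the 6-month library of low Xist and 310 without the 3 pancreas-rich libraries. Calls over all genes numbered 1500 (9.92%) at 3 months and 796 (5.26%) at 6 months. Among the 24 genes of largest difference, Hemgn, Sptb, Klf1, Btnl10 and Fn3k, which had the erythroid pattern, were called at neither later age, and Vnn3 was not called at 3 months (adjusted p 0.102).

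Neighbouring Trim genes of chromosome 7 held several of the largest falls. The tripartite-motif proteins of this cluster include relatives of the retroviral restriction factor TRIM5, and the 10 genes examined, chosen after their values were seen, span chr7:104218793-104507849 (GRCm38). Of the 10, 7 were lower and 1 was higher, against 16% and 13.4% of all genes, and 2 were not called. Trim12a was at 0.271, 0.179 and 0 CPM in the NZB/W-F1 libraries and 122, 85.9 and 108 CPM in the C57BL/6 libraries, and its difference of -7.35 ± 0.23 (adjusted p 1.15e-10) stood beside -4.84 in kidney and -2.64 in brain. Trim30d was at 0.814, 1.26 and 0.785 against 83.9, 70.1 and 61 CPM (difference -5.64 ± 0.33, adjusted p 9.01e-08). Between them on the map, Trim12c was at 76.7, 76.2 and 83.2 against 75.8, 69.6 and 61.9 CPM and was not called (difference 0.19 ± 0.18, adjusted p 0.446), and Trim30c was not called either (difference 0.096 ± 0.29, adjusted p 0.82). Genes that were lower and genes that were not called thus alternated along the cluster.

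Further members fell by smaller amounts. Trim6 was at 0.543, 0.359 and 0.471 against 2.26, 3.19 and 2.25 CPM (difference -1.67 ± 0.40, adjusted p 0.0096), Trim30b at 6.78, 5.83 and 5.97 against 57.9, 44.3 and 40.9 CPM (difference -2.83 ± 0.37, adjusted p 0.000192) and Trim30a at 94.1, 87.7 and 98.3 against 205, 189.9 and 141 CPM (difference -0.92 ± 0.21, adjusted p 0.00854). Trim5 was at 0.995, 0.807 and 1.1 against 43.8, 27.4 and 28.3 CPM (difference -4.49 ± 0.25, adjusted p 4.81e-08), with 53.3% of its words found in other genes, most of all in Trim12c. Trim34a differed by -2.87 ± 0.31 and Trim34b by 2.14 ± 0.31; 68.5% and 69% of their words occur in other genes, most of all in each other, so both values are uncertain.

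**Figure D5:**
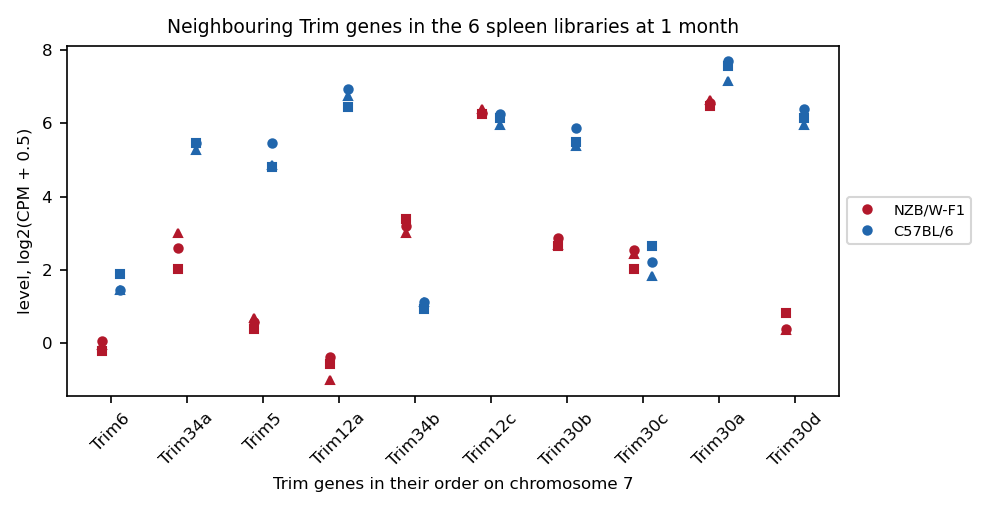
Level (log2 of CPM + 0.5) of 10 neighbouring Trim genes in the 6 libraries of 1 month, in their order on chromosome 7, with NZB/W-F1 in red and C57BL/6 in blue and a marker shape per replicate. Trim12c and Trim30c are close together in both strains, Trim34b is higher in NZB/W-F1 and the other 7 are lower in all 3 NZB/W-F1 libraries.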

How the data were processed

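Per the labels' protocols, RNA of PBS-perfused mice was taken with TRIzol and made into libraries with the TruSeq RNA Sample Prep Kit v2. Per the submitters' processing notes, STAR 2.6, HTSeq, edgeR and the build mm10 were used; whether counting used strand is not given in the sources used here, so overlapping and antisense genes cannot be separated. The authors deposited 1 spleen table of normalised signal, labelled CPM, whose column totals (922403 to 1143677) differ between libraries, as CPM scaled by normalisation factors do; the plan had assumed plain CPM. Hybrid reads were counted on a reference of C57BL/6 sequence, and the effect of strain differences in sequence was not tested.

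Whole read counts were recovered from the deposited values for 100% of values within 0.01. Genes with at least 1 CPM in 2 libraries were tested (15122; 15115 matched to GENCODE vM21) with limma 3.58.1 (R 4.3.3) on log2(CPM + 0.5), trended, with a mean for each of 6 groups of 16 spleen libraries, two-sided. On the recovered reads edgeR 4.0.16 called 4486 genes and DESeq2 1.42.0 called 4920. Alternatives also changed scaling, filter, pseudocount, samples fitted, replicate block and each library in turn. The limma and edgeR tests were also run on simulated counts, and the outcome is not reported here. Kidney (14373 genes) and brain (14895) were fitted separately in the same way, with at least 1 CPM in 3 libraries; 3 kidney rows that name no gene (20.8% to 29.9% of the column totals) were left out. Floors (3 reads) and intervals cover counting error only. Replicates of 1 month correlated at 0.973 to 0.989 (NZB/W-F1) and 0.917 to 0.954 (C57BL/6) on the log2 scale, and none was a duplicate.

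The members and gene lists were chosen with earlier results of these data known. Named genes are, at a mean of at least 5 CPM in 1 strain and no overlap, the 12 called genes with the largest change in each direction, 4 interactions in each direction, and up to 4 members of smallest p per list. Some genes that this rule names are not reported here. Predicted genes and pseudogenes were passed over, except H2-Ea-ps, which its list names. Further list members and the Trim genes (among them Epor, Alas2, Mki67, Top2a, Isg15, H2-K1, Elane, Hmox1 and Ighm) were chosen after their values were seen. A gene sharing 50% or more of its 31-base words with another is given as uncertain (45 of 584 members).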

Additional observations from a re-analysis of the deposited data

Results flagged for a closer look

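The strain difference changed with age, by a test of that change in the same model, for 1639 genes between 1 and 3 months (10.8% of those tested, 1172 of them higher at 3 months) and for 148 between 1 and 6 months (0.979%, 128 higher). At an unadjusted p under 0.05 the numbers were 4666 and 4083. The strains lie in separate runs of sample numbers at 1 month only, so age and run cannot be told apart in these changes. The first count became 0 without 1-month NZB/W-F1 replicate 1 or 3-month C57BL/6 replicate 1, 18 and 1016 without 1-month C57BL/6 replicate 1 or 3, 308 without 1-month NZB/W-F1 replicate 2, 163 without 3-month C57BL/6 replicate 2 and 466 without 3-month NZB/W-F1 replicate 3. The second became 7, 1483 and 51 without 1-month C57BL/6 replicate 1, 2 or 3, and 16, 24 and 27 without 1-month NZB/W-F1 replicate 1, 2 or 3. It was 42 and 39 without 3-month C57BL/6 replicate 1 or 2, 461 without 3-month NZB/W-F1 replicate 1, 2 and 258 without 6-month C57BL/6 replicate 1 or 2, and 66, 2362 and 15 without 6-month NZB/W-F1 replicate 1, 2 or 3.

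Of the genes with the largest such changes, 4 had a strain difference that was higher at 3 months. Scara5, a ferritin receptor, was at 1.27, 1.71 and 4.24 against 13.9, 4.43 and 20.9 CPM at 1 month and at 3.27 ± 0.702 against 0.305 ± 0.224 CPM (mean ± SD of 3 and 2 libraries) at 3 months, a change of 4.36 (adjusted p 0.019). Its C57BL/6 level at 3 months was near the 3-read floors of replicates 1 and 2, 0.441 and 0.154 CPM. The complement component C6 was at 8.95, 7.99 and 23.1 against 54.6, 56.6 and 13.7 CPM at 1 month and 34.9 ± 21.5 against 4.02 ± 2.98 CPM at 3 months, a change of 4.38 (adjusted p 0.029). Krt18, an epithelial keratin, changed by 4.60 (adjusted p 0.0466), from 0.362, 1.88 and 0.942 against 9.47, 0.885 and 25 CPM to 6.03 ± 7.38 against 0.419 ± 0.447 CPM, and its call was lost without C57BL/6 replicate 3 of 1 month (0.082), the library with 1180 CPM of mesothelium genes; the part of those genes in this change was not tested. The C57BL/6 level of Krt18 at 3 months was also near those floors. Its NZB/W-F1 group at 3 months includes replicate 2, with 17.3% of its reads in pancreas genes. Slc7a2, a transporter of cationic amino acids, changed by 4.21 (adjusted p 0.0201), from 4.25, 8.52 and 15.9 against 89.5, 47.4 and 82.5 CPM to 15.2 ± 5.9 against 6.52 ± 4.03 CPM.

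The other 4 were higher in NZB/W-F1 at 1 month and not at 3 months. Samd11 was at 101, 81.4 and 99.1 against 1.47, 17.2 and 0.588 CPM at 1 month and 8.52 ± 10.4 against 12.5 ± 5.87 CPM at 3 months, a change of -6.21 (adjusted p 0.047). Hbq1b, a theta-like globin, was at 48.9, 35.6 and 45.2 against 2.37, 10.8 and 1.18 CPM and 4.05 ± 5.18 against 13.1 ± 9.97 CPM, a change of -5.51 (adjusted p 0.044). Dnajb3 changed by -4.58 (adjusted p 0.0261), from 10, 8.61 and 11.5 against 0, 2.3 and 0.686 CPM to 1.59 ± 1.48 against 4.38 ± 2.25 CPM. Slc6a20a, a proline transporter, changed by -4.47 (adjusted p 0.0459), from 21.8, 18.5 and 35.5 against 0.451, 6.73 and 0.883 CPM to 6.15 ± 5.74 against 11.2 ± 8.56 CPM. All 8 calls were lost in some of their 25 or 26 alternatives: 5 for Scara5, 8 for C6, 17 for Krt18, 5 for Slc7a2, 14 for Samd11, 13 for Hbq1b, 8 for Dnajb3 and 13 for Slc6a20a. Their direction was the same in every alternative run.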

How the results depend on the processing

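Without the pancreas-rich libraries the strain count of 4449 at 1 month was 2339, and the counts that changed with age were 0 of 1639 (3 months) and 0 of 148 (6 months). Leaving out 1 of 16 libraries at a time gave 1864 to 4852 strain calls at 1 month, 0 to 2404 calls of change from 1 to 3 months, 2 to 2362 from 1 to 6 months and 278 to 414 genes called in 1 direction at all 3 ages (378 in full). DESeq2 gave 2911 and 1237 calls of change, edgeR 88 and a fit of only the groups compared 39 for the change to 6 months, and a filter at a mean of 5 CPM left 197 genes at all 3 ages. Of the changes to 6 months, 86.5% were higher, against 45.2% with DESeq2. With the replicate number as a block the counts were 2513, 1, 0 and 215. The numbers were not taken to pair libraries, since deviations of equal-numbered libraries correlated at -0.014, -0.41 and -0.0011. Among 219 single-gene values no called difference changed sign, while 7 that were not called did (such as Trim30c, -0.11 to 0.31): the block ended 30 calls, median-of-ratios scaling 15, edgeR 14, DESeq2 9 of 215 and omission of the pancreas-rich libraries 51. With 3 libraries per strain and 5.27 to 11.6 M reads each, the power for small differences and for genes near the 3-read floor was limited.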

Other observations

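Complement and marginal zone genes were not described above. Of 16 complement genes, 1 was higher and 4 were lower in NZB/W-F1 at 1 month, against 13.4% and 16% of all genes. The lower count was 1 without C57BL/6 replicate 1, NZB/W-F1 replicate 1 or the pancreas-rich libraries. It was 2 without C57BL/6 replicate 3, without NZB/W-F1 replicate 2 or 3 or with median-of-ratios scaling. C4a, a C4 paralogue, was at 3.89, 5.65 and 5.5 against 0.677, 0.708 and 1.08 CPM (difference 2.06 ± 0.27, adjusted p 0.000186), and it stayed higher at 3 months (1.89) and 6 months (3.07). Of 6 marginal zone macrophage genes, 3 were lower (against 16% of all genes), and 1 without C57BL/6 replicate 1 or the pancreas-rich libraries. Msr1, a scavenger receptor, was at 2.98, 3.86 and 6.91 against 20.6, 15.8 and 10.6 CPM (difference -1.69 ± 0.37, adjusted p 0.0069), with no overlap between strains. Marco, the scavenger receptor that marks these macrophages, was at 68, 81.1 and 49 against 164, 159.9 and 143 CPM, and its call (difference -1.26 ± 0.38, adjusted p 0.0267) was lost without C57BL/6 replicate 1 (0.082) or 3 (0.056), NZB/W-F1 replicate 1 (0.068) or 3 (0.092), or the pancreas-rich libraries (0.087).

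In the germinal centre list 1 of 12 genes was higher and 1 lower, shares below the 13.4% and 16% of all genes. Bcl6, the repressor that defines germinal centre B cells, was at 34.4, 35.8 and 30.8 against 61.8, 48.3 and 56.8 CPM (difference -0.71 ± 0.18, adjusted p 0.0116), a call lost without C57BL/6 replicate 1 (0.055) and without the pancreas-rich libraries (0.057). The list's higher call was lost without C57BL/6 replicate 3 or NZB/W-F1 replicate 1.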
